A study of Mus musculus with 6 samples.

Results

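Imprinted genes are expressed mainly or only from the allele inherited from 1 parent, and 36 such genes of the mouse were followed here across 6 arrays. Members were chosen by name: every gene probe whose gene name on the array is one of the 36 was taken, and all probes of a gene were kept. The arrays carried 30222 gene names or transcript identifiers on 39429 gene probes, and 63 of these probes belonged to 35 of the 36 genes, while Rian, a maternally expressed noncoding RNA, had no probe under its name. Of the 63 probes, 56 probes of 33 genes were tested because at least 3 of the 6 arrays read them well above background, which 26649 gene probes did in all. The untested genes were Zim1, a zinc finger gene next to Peg3, and Rtl1, a retrotransposon-derived gene of the Dlk1-Meg3 cluster, and no array read their 3 probes well above background. The same held for 1 further probe each of Kcnq1, Gnas, Nap1l5 and Inpp5f, genes that other probes measured.

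The study set Zscan5b knockout embryonic stem (ES) cells against wild type ES cells, with 3 biological replicates of each according to its design. Zscan5b encodes a zinc finger protein. Both genotypes grew with leukemia inhibitory factor at 1000 IU/ml, a cytokine that keeps mouse ES cells undifferentiated, on fibroblast feeders from mouse embryos that mitomycin C at 10 ug/ml had stopped from dividing. Each sample's total RNA, carrying the dye Cy3, was read on a 1-colour Agilent array. Where the deletion lies, how it was made, the strain and sex of the cells and whether the knockout replicates are separate clones are not given in the labels, and neither is whether feeder cells were removed before extraction. Nothing in the labels ties the replicates to separate lines, so p-values measure the spread between these samples.

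Imprints are set in the germline as DNA methylation of control regions, on the maternal or the paternal chromosome, and are kept through the genome-wide demethylation of the early embryo. A control region acts on a whole cluster of genes, through an insulator at Igf2-H19 and through a long noncoding RNA at Kcnq1. ES cells carry imprints from the embryo but can lose or gain methylation at them in culture, and H19 and the Dlk1-Meg3 cluster are known for such variation. The probes do not distinguish the parental alleles, so the values below are total signal of both.

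Values are log2 signals relative to the 75th percentile of the same array, and a log2 fold change is knockout minus wild type. The targeted gene had 1 probe, at mm9 chr7:6190808-6190867, and it read -4.47, -5.17 and -5.13 in knockout replicates 1 to 3, against -3.66, -4.03 and -3.12 in wild type replicates 1 to 3. The Zscan5b values of the groups did not overlap, with a log2 fold change of -1.32 ± 0.29 (SE) and an adjusted p of 0.107 in limma, and the probe stayed well above background on every array. Whether it lies inside the deleted part is not known, so it gives no check of the labels. All knockout arrays were on 1 slide and in 1 scan, and all wild type arrays on another slide and in another scan, so slide, scan and genotype cannot be told apart. Between array pairs the SD of the differences was 0.331 to 0.399 within the knockout and 0.513 to 0.639 within wild type. Of 12 pluripotency markers 11 were tested, all well above background on every array, and their summed relative signal was 501 to 539 in knockout arrays and 473 to 536 in wild type arrays. Limma called 0 of their 14 probes, but 5 (4 higher, 1 lower), or 35.7%, had an unadjusted p below 0.05, against 21.9% of all tested probes. The groups did not overlap for 35.7%, against 29.0% of all. Pou5f1 was at -0.47 ± 0.10 and Nanog at 0.66 ± 0.22 (log2 fold change, SE), both without overlap. The tested endoderm (8 of 10), mesoderm (6 of 9), neuroectoderm (8 of 10) and trophoblast (3 of 10) markers summed to 6.55 to 7.43, 7.26 to 7.42, 7.39 to 8.51 and 7.06 to 9.63 in knockout arrays, against 5.79 to 9.98, 7.45 to 8.85, 7.21 to 10.27 and 3.77 to 5.40 in wild type arrays, and limma called 0 of their probes. Of their probes with a value on every array, 5 of 8 endoderm and 3 of 4 trophoblast probes had an unadjusted p below 0.05 in limma. These were 62.5% (4 higher, 1 lower) and 75% (3 higher), against 21.9% of all tested probes. For mesoderm and neuroectoderm the shares were 25% and 36.4%. The share of all tested probes was not limited to probes with a value on every array. Dab2, a tested endoderm marker without a value on wild type replicate 1, was left out of the endoderm count. It was lower, at -1.22 (log2 fold change, unadjusted p 0.0013 in limma). The 1 lower endoderm probe in the count was Sox7, at -1.25 (unadjusted p 0.0011 in limma), so the endoderm markers with the smallest p were lower.

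No imprinted gene passed the test. At an adjusted p below 0.05 limma called 0 of the 56 probes, against 124 of 26649 tested probes (0.465%), and an alternative limma fit with array weights called 5 of the 56 (5.95% of all probes). An unadjusted p under 0.05 was reached by 13 imprinted probes (4 higher, 9 lower), or 23.2%, against 21.9% of all tested probes. The 3 knockout values lay all above or all below the 3 wild type values for 11 of the 56 probes (3 higher, 8 lower), or 19.6%, against 29.0% of all tested probes. Both shares were near or below those of all probes. Both counts include the Kcnq1 probe and the dimmer H19 probe, which passed the filter mainly or only through 1 genotype. The Kcnq1 probe is also among the 5 called with array weights. Fold changes over the 56 probes ranged from -1.09 to 2.29 with a median of -0.10, and adjusted p ran from 0.108 to 0.999. The 2.29 is Kcnq1, which was well above background on only 1 wild type array, and the next highest value was 0.81, for Nnat.

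With the brightest tested probe standing for each gene, 16 genes lay above zero in log2 fold change and 17 below it. Their median was -0.03, against -0.01 over all tested probes. The 20 genes usually expressed from the paternal allele were split into 10 positive and 10 negative, with a median of -0.07, and the 12 usually expressed from the maternal allele into 5 positive and 7 negative, with a median of -0.09. Gnas, whose transcripts come from either parental allele, was not assigned to either class. Inpp5f, whose paternal expression also depends on the transcript, was counted as paternal, at 0.18. Neither parental class stood on 1 side of zero.

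**Figure D1:**
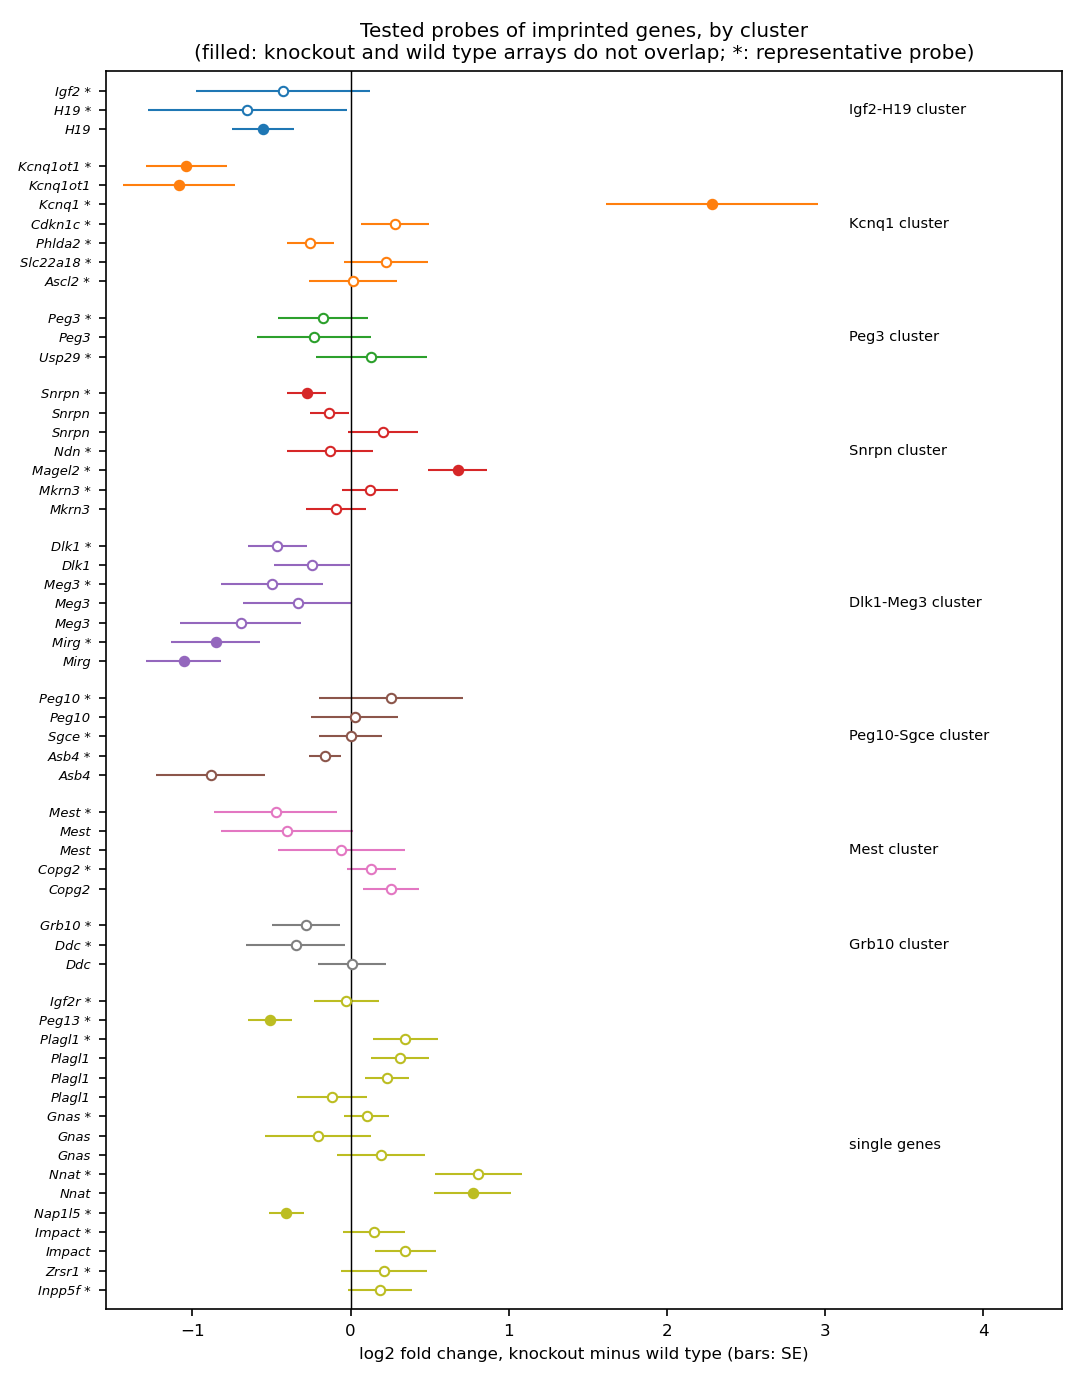
Log2 fold change (knockout minus wild type, horizontal axis, bars SE) of each of the 56 tested probes, grouped by imprinted cluster down the page. Filled points mark the 11 probes whose knockout and wild type arrays did not overlap, and the Dlk1-Meg3 and Igf2-H19 probes all lie left of zero while Kcnq1 lies farthest right at 2.29. Kcnq1 was well above background on only 1 wild type array, and the dimmer H19 probe on wild type arrays only.

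The imprinted RNAs with the smallest p in several clusters were noncoding, and 60-base probes of the array for them are printed because the readings below rest on these letters. They are the strand of the RNA, 5′ to 3′, at mm9 positions given by the scanner files. No exon or intron was assigned to them here.
Kcnq1ot1 brighter probe, chr7:150440140-150440199, minus strand: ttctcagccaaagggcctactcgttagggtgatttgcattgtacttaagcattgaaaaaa
Kcnq1ot1 dimmer probe, chr7:150434020-150434079, minus strand: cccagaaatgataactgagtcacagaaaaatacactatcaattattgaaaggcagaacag
Mirg brighter probe, chr12:110987569-110987628, plus strand: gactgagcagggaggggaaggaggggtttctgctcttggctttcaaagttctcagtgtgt
Mirg dimmer probe, chr12:110979653-110979712, plus strand: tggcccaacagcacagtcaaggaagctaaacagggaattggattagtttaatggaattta
Meg3 brightest probe, chr12:110809678-110809737, plus strand: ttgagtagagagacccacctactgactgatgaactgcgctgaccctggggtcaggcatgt
Meg3 dimmest probe, chr12:110799558-110799617, plus strand: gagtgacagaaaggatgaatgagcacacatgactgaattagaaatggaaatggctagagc
H19 brighter probe, chr7:149761492-149761551, minus strand: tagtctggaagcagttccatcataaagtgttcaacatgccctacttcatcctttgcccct
H19 dimmer probe, chr7:149762417-149762476, minus strand: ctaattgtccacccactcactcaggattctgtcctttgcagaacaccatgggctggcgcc
Peg13 probe, chr15:72636072-72636131, minus strand: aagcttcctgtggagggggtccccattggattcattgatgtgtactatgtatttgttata

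In the Kcnq1 cluster, the noncoding RNA had the smallest p of all imprinted genes. Kcnq1ot1 is transcribed from the paternal allele, antisense to and from inside Kcnq1, and is known to keep the paternal copies of the neighbouring genes silent. It read -3.40, -3.56 and -2.90 in knockout replicates 1 to 3, against -1.79, -2.47 and -2.47 in wild type replicates 1 to 3. Every knockout array of Kcnq1ot1 lay below every wild type array, a 2.06-fold lower mean signal. The log2 fold change was -1.04 ± 0.26 (SE), with an unadjusted p of 0.0061 and an adjusted p of 0.120 in limma. Its dimmer probe gave -1.09 ± 0.35 without overlap, and was well above background on 2 knockout and 3 wild type arrays. Under array weights Kcnq1ot1 was called, at -1.27 (adjusted p 0.0490, where the alternatives spanned 0.0490 to 0.369). Array weights called 5.95% of all tested probes.

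Kcnq1 itself, a potassium channel subunit expressed from the maternal allele in early embryos, read in the other direction. Its tested probe was at -6.20, -5.45 and -5.32 in knockout replicates 1 to 3, against -8.60, -6.38 and -8.86 in wild type replicates 1 to 3. Each knockout array was brighter than each wild type array, but only wild type replicate 2 was well above background, against all 3 knockout arrays. The log2 fold change of Kcnq1 was 2.29 ± 0.67 (SE). The 3 knockout arrays alone met the filter, which favoured a higher knockout value, so no p is given for this probe. With normexp background correction the value was 0.31. That correction used an offset of 50, above this probe's signals of 2 to 22.4. The 0.31 is therefore not an effect size to set beside 2.29. Without wild type replicate 2, the only wild type array that measured it, the value was 3.07 against a pair of arrays not well above background. That fit called the probe, but the call set signal against background and is no test of the gene. The same fit called 9.6% of all tested probes. A second Kcnq1 probe overlapping the first in position was not well above background on any of the arrays and was not tested.

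The groups overlapped for the other protein-coding genes of the cluster. Phlda2, which restrains placental growth, read 0.34, 0.49 and 0.73 in knockout replicates 1 to 3, against 0.70, 0.66 and 0.97 in wild type replicates 1 to 3. The 2 lower knockout arrays of Phlda2 lay below every wild type array and the third between them (log2 fold change -0.26 ± 0.15, SE, adjusted p 0.342 in limma). Cdkn1c, an inhibitor of cyclin-dependent kinases, ranged from -0.35 to 0.33 in the knockout and from -0.60 to -0.15 in wild type, and its fold change was 0.28 ± 0.21 (log2, SE). Slc22a18, a membrane transporter, was at 0.23 ± 0.26 and Ascl2, a transcription factor of the trophoblast, at 0.01 ± 0.28. The genes of the cluster were thus on both sides of zero, 4 positive and 2 negative by their brightest probes. Kcnq1 is counted as positive, although only 1 wild type array read it well above background.

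For regulatory context, the 250 bases before the start of Kcnq1ot1 and of a pair of other genes below are printed from RefSeq on GRCm38.p6, a build other than that of the probes. The sequence TGCCGC and its reverse complement GCGGCA were searched on both strands. TGCCGC is the site that ZFP57, a zinc finger protein that protects imprints in ES cells, binds where its CpG is methylated. In the lines below, capitals mark a match.
Kcnq1ot1 upstream, chr7:143296548-143296797, minus strand: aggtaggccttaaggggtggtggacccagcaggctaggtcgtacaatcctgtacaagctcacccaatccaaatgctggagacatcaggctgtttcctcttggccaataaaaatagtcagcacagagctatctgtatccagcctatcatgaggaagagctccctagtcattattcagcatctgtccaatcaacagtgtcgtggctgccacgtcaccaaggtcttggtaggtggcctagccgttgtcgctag
Nap1l5 upstream, chr6:58907127-58907376, minus strand: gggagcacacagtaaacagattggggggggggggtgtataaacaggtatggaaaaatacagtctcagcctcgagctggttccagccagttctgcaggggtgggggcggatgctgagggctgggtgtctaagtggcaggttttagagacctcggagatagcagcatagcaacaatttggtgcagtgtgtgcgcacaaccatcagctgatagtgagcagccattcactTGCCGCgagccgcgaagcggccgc
Nnat upstream, chr2:157559828-157560077, plus strand: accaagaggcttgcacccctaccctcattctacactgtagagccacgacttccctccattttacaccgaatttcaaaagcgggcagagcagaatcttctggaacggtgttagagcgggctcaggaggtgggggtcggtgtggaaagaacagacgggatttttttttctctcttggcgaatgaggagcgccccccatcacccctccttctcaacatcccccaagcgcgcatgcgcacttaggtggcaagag

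In windows of 300 bases, from 250 before a start to 50 after it, the motif was found in 11 of 43 windows of imprinted genes (25.6%), against 3813 of 32851 windows of all genes (11.61%). Promoters were matched for 28 of the 36 genes, and 10 of these had a match in at least 1 window: Nnat, Mest, Copg2, Nap1l5, Zim1, Snrpn, Igf2, Plagl1, Grb10 and Meg3. Over all genes this held for 3527 of 27025 (13.05%). The Mest windows with a match nearly coincide, so the window count can hold the same sites more than once. The imprinted windows were also richer in CpG, with a median of 13 CpG against 7 over all windows. A match of these letters is not a binding site, and promoters are not always the control regions. The Kcnq1ot1 window had 0 matches, the Nap1l5 window 2 and the Nnat window 1, which lies after the start and is not in the printed stretch.

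In the Dlk1-Meg3 cluster on chromosome 12 the log2 fold change of all 7 tested probes was below zero, at a median of -0.50. Mirg, a maternally expressed RNA that hosts many microRNAs, read 0.25, 0.06 and 0.38 in knockout replicates 1 to 3, against 1.24, 0.47 and 1.54 in wild type replicates 1 to 3. The groups did not overlap, and wild type replicate 2 lay closest to the knockout. This gave -0.85 ± 0.28 (log2 fold change, SE, adjusted p 0.174 in limma). Its dimmer probe read -0.92, -0.99 and -0.82 in knockout replicates 1 to 3, against 0.51, -0.39 and 0.31 in wild type replicates 1 to 3. This probe had the smallest adjusted p of all imprinted probes, 0.108 in limma, at -1.06 ± 0.24 (log2 fold change, SE). Without wild type replicate 2 the brighter Mirg probe was called at -1.16 (adjusted p 0.0319, where the alternatives spanned 0.0319 to 0.421), in a fit that called 9.6% of all tested probes.

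Meg3, the maternally expressed long noncoding RNA at the start of the same transcribed region, read 1.90, 1.93 and 2.47 in knockout replicates 1 to 3, against 2.85, 1.93 and 3.01 in wild type replicates 1 to 3. Wild type replicates 1 and 3 exceeded all knockout arrays, while wild type replicate 2 was at the level of knockout replicate 2. Meg3 thus stood at -0.50 ± 0.32 (log2 fold change, SE, adjusted p 0.384 in limma), and its other probes gave -0.33 ± 0.34 and -0.70 ± 0.38. Its brightest probe was at -0.83 without wild type replicate 2 and at -0.29 without wild type replicate 3. On all 3 Meg3 probes and both Mirg probes, wild type replicate 2 was the lowest wild type array.

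Dlk1, a paternally expressed membrane protein related to Notch ligands, read -0.06, 0.46 and 0.13 in knockout replicates 1 to 3, against 0.37, 0.69 and 0.86 in wild type replicates 1 to 3. Only knockout replicate 2 reached into the wild type range. Dlk1 differed by -0.46 ± 0.19 (log2 fold change, SE, unadjusted p 0.046, adjusted p 0.222 in limma), and its dimmer probe gave -0.25 ± 0.24. Unlike for the maternal RNAs of the cluster, wild type replicate 1 was the lowest wild type array of the brighter Dlk1 probe.

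**Figure D2:**
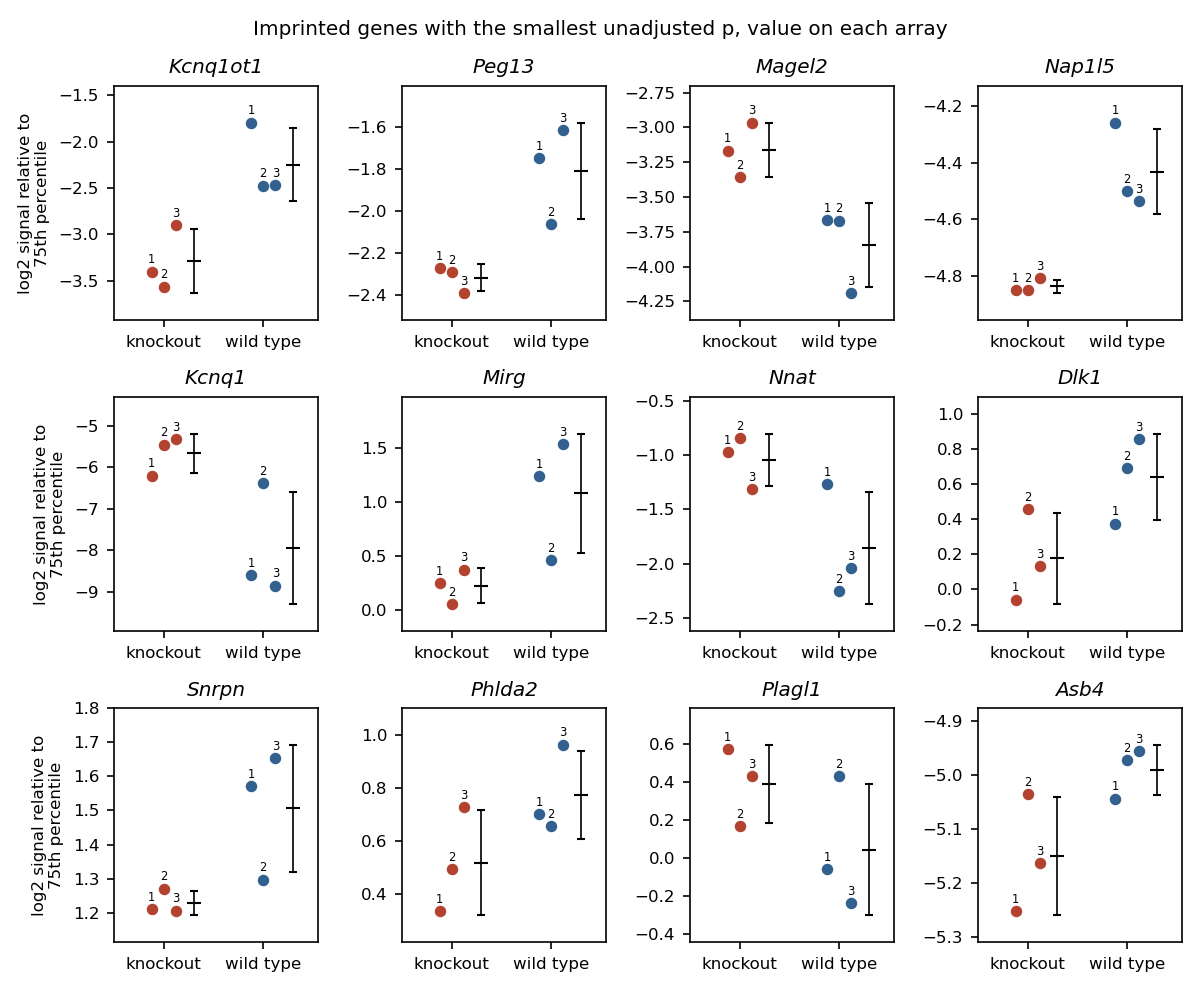
Log2 signal relative to the array's 75th percentile (vertical axes, scaled per panel) on each numbered replicate for the 12 imprinted genes with the smallest unadjusted p, knockout left and wild type right, with mean and SD bars. Kcnq1ot1, Peg13, Nap1l5, Mirg and Snrpn lie lower and Magel2 and Kcnq1 higher in all 3 knockout arrays, and the other panels overlap.

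H19 and Igf2 share a control region and enhancers on distal chromosome 7, H19 being a maternally expressed noncoding RNA and Igf2 a paternally expressed growth factor. The brighter H19 probe read 3.55, 4.16 and 3.86 in knockout replicates 1 to 3, against 3.00, 5.19 and 5.34 in wild type replicates 1 to 3. Wild type replicate 1 lay below all knockout arrays and the other wild type arrays above them. Its log2 fold change was -0.65 ± 0.63 (SE, adjusted p 0.552 in limma). Without wild type replicate 1 it was -1.41 and was called (adjusted p 0.0390, where the alternatives spanned 0.0390 to 0.866), against -0.31 without wild type replicate 2 and -0.24 without replicate 3. The fit without wild type replicate 1 called 2.4% of all tested probes. The dimmer H19 probe was well above background on 0 of 3 knockout arrays and on all 3 wild type arrays, so it passed the filter through wild type alone. That filter favoured a lower knockout value, so no p is given for this probe. As a rough bound, knockout values were raised to the dimmest signal that passed detection on each array. The mean was then 1.16-fold lower in the knockout (measured means -6.53 in the knockout and -5.98 in wild type). This bound has no error estimate and rests on the same filter, so it does not show a lower signal.

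Igf2 ordered the 6 arrays exactly as the brighter H19 probe did. It read -3.63, -3.12 and -3.20 in knockout replicates 1 to 3, against -4.20, -2.41 and -2.06 in wild type replicates 1 to 3. Wild type replicate 1 was again below all knockout arrays and the other wild type arrays above them. Knockout minus wild type gave -0.43 ± 0.55 (log2 fold change, SE, adjusted p 0.659 in limma), which was -1.08 without wild type replicate 1 and -0.015 without wild type replicate 3. Within wild type, replicate 1 was 2.27 (H19) and 1.97 (Igf2) below the mean of replicates 2 and 3 on the log2 scale.

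Markers of feeder fibroblasts, cells also known to express H19 and Igf2, varied among the same arrays. Their mean centred log2 signal was -0.64, -0.16 and -0.50 in knockout replicates 1 to 3, against -0.64, 1.05 and 0.89 in wild type replicates 1 to 3. Of 32 listed markers 31 were tested and well above background on all arrays, and their summed relative signal was 194 to 241 in knockout arrays and 207 to 362 in wild type arrays. Of the 31 genes, 30 were below zero in fold change (median -0.79), and 0 of their 36 probes were called by limma (8, or 22.2%, at an unadjusted p below 0.05, against 21.9% of all tested probes). Wild type replicate 1 was the lowest wild type array for H19, Igf2 and the feeder markers alike. In bulk RNA fewer cells of a type and less RNA per cell cannot be told apart, and the part of feeder cells in these results was not tested.

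The maternal RNAs of the Dlk1-Meg3 cluster did not follow the feeder markers from array to array. Meg3 and Mirg were lowest among wild type arrays on replicate 2, where the feeder markers were highest. Mest, a paternally expressed gene of the hydrolase family that mesenchymal cells also express, was also lowest within wild type on replicate 2. It read 2.52, 1.60 and 1.68 in knockout replicates 1 to 3, against 2.95, 1.70 and 2.57 in wild type replicates 1 to 3, and its log2 fold change was -0.47 ± 0.39 (SE). Knockout replicate 1 of Mest lay among the wild type arrays, and wild type replicate 2 among the knockout arrays.

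**Figure D3:**
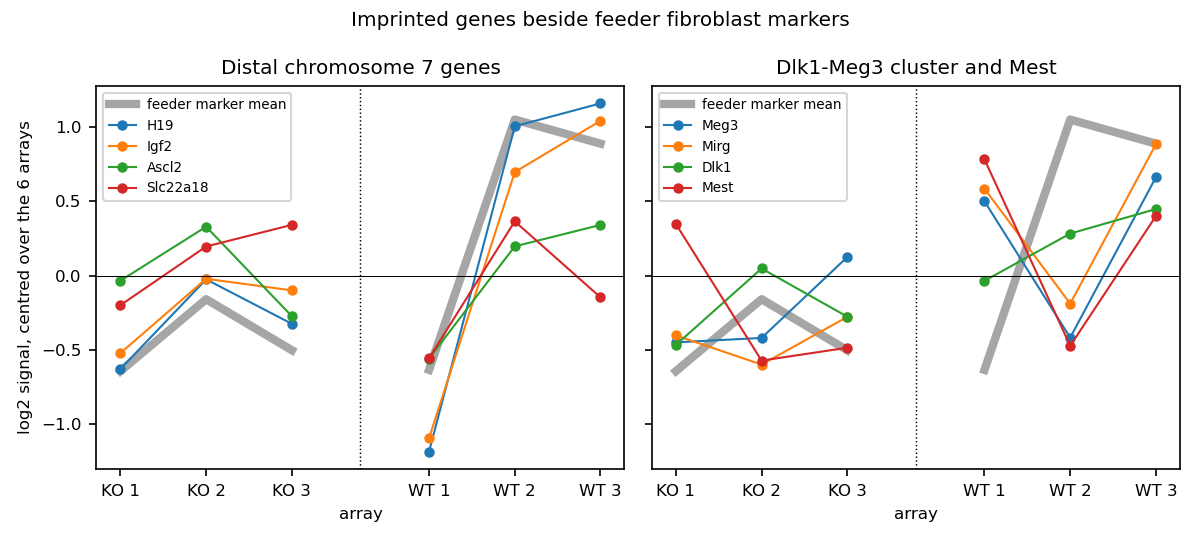
Log2 signal centred over the 6 arrays (vertical axis) on each array (horizontal axis, KO for knockout, WT for wild type) for imprinted genes and for the mean of 31 feeder markers (grey band). H19 and Igf2 are lowest on wild type replicate 1, where the feeder mean is -0.64, while Meg3, Mirg and Mest are lowest within wild type on replicate 2, where it is 1.05.

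The Peg3 cluster lies on the same proximal part of chromosome 7 as Zscan5b, with probes of Peg3 468 and 470.6 kb and of Usp29 729 kb from the Zscan5b probe. Peg3, a paternally expressed zinc finger gene, read -1.36, -1.73 and -1.35 in knockout replicates 1 to 3, against -1.58, -1.66 and -0.68 in wild type replicates 1 to 3. The groups overlapped, and only wild type replicate 3 lay apart from the rest. The log2 fold change of Peg3 was -0.17 ± 0.28 (SE, adjusted p 0.733 in limma), its dimmer probe gave -0.23 ± 0.36, and without wild type replicate 3 the brighter probe was at 0.14. Apeg3, antisense to Peg3, had a log2 fold change of 0.21 on a probe between them, and the sources used here do not say whether labelling kept the strands fully apart.

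Usp29, a paternally expressed gene of the ubiquitin protease family, starts close to Peg3 and runs in the other direction. It read -4.19, -4.36 and -4.50 in knockout replicates 1 to 3, against -5.03, -3.67 and -4.75 in wild type replicates 1 to 3. Wild type arrays lay on both sides of the knockout arrays, and the log2 fold change was 0.13 ± 0.35 (SE, adjusted p 0.843 in limma). The sign of Usp29 turned without wild type replicate 1 (-0.14) and without wild type replicate 3 (-0.0035). The stretch between the starts of both genes, 96 bases with 3 CpG and no TGCCGC, is printed from RefSeq on GRCm38.p6. Other shared promoters near Zscan5b were not searched for.
Peg3 to Usp29 interval, chr7:6730463-6730558, plus strand: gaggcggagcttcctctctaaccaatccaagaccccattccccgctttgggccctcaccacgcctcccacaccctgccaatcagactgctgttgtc

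Within 1000 kb of the Zscan5b probe 36 probes of 29 genes besides Zscan5b were tested, Peg3 and Usp29 among them, and limma called 0. Of these probes 10 had an unadjusted p below 0.05 (27.8%, against 21.9% of all tested probes), and the groups did not overlap for 14 (40% of those with a value on every array, against 29.0% of all), with a median log2 fold change of -0.04 and a range from -0.87 to 0.82. Peg3 and Usp29 were near the middle of that range. Zim3, an imprinted zinc finger gene that is not among the 36, lay 723.1 kb away and read -4.03, -3.76 and -3.71 in knockout replicates 1 to 3, against -3.32, -2.66 and -2.97 in wild type replicates 1 to 3. Its groups did not overlap, at -0.85 ± 0.19 (log2 fold change, SE, adjusted p 0.109 in limma).

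**Figure D4:**
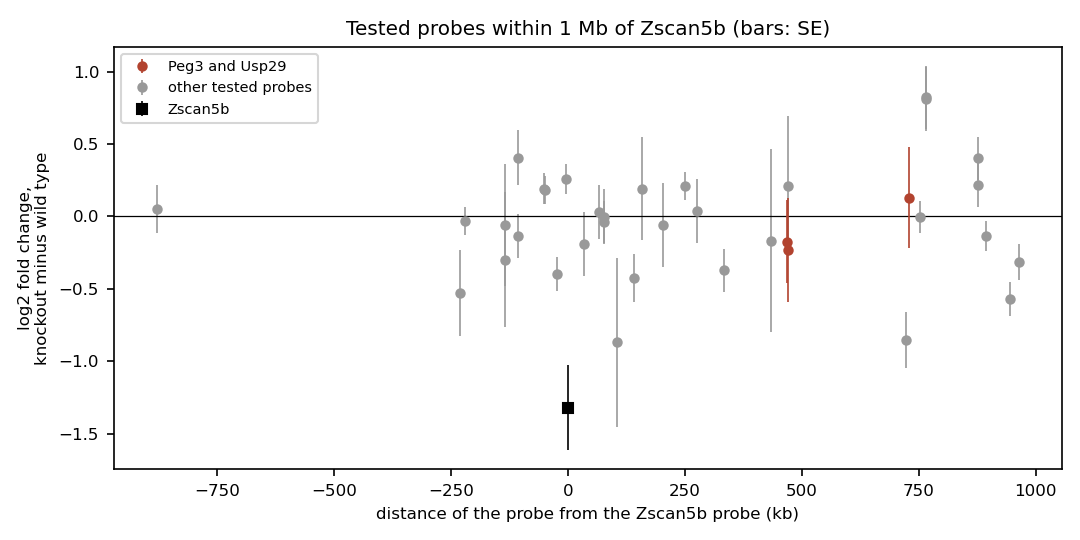
Log2 fold change (knockout minus wild type, vertical axis, bars SE) of the 36 tested probes within 1000 kb of the Zscan5b probe against their distance from it in kb (horizontal axis). The Peg3 and Usp29 probes lie between -0.23 and 0.13, and Zscan5b itself lies at -1.32.

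The Snrpn cluster, whose paternally expressed genes are lost in Prader-Willi syndrome in people, had members on both sides of zero. Magel2, a member of the MAGE family, read -3.17, -3.36 and -2.97 in knockout replicates 1 to 3, against -3.67, -3.67 and -4.19 in wild type replicates 1 to 3. Every knockout array of Magel2 lay above every wild type array, with a log2 fold change of 0.68 ± 0.19 (SE, unadjusted p 0.0103, adjusted p 0.141 in limma). With normexp it was 0.38, where the offset of 50 was close to the lowest of its signals (51.1 to 114.8). Snrpn, a splicing protein, read 1.21, 1.27 and 1.21 in knockout replicates 1 to 3, against 1.57, 1.30 and 1.65 in wild type replicates 1 to 3. Its brightest probe did not overlap, at -0.28 ± 0.12 (log2 fold change, SE, adjusted p 0.247 in limma), though wild type replicate 2 was only just above the knockout. The probes of Snrpn disagreed: the others gave -0.13 ± 0.12 and 0.20 ± 0.22, with overlap. Ndn, another MAGE gene, was at -0.13 ± 0.27, and Mkrn3, a zinc finger protein of the makorin family, at 0.12 ± 0.18 and -0.09 ± 0.19 by its probes.

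Among imprinted genes outside the larger clusters, Peg13 and Nap1l5 read lower without overlap. Peg13, a paternally expressed noncoding RNA on chromosome 15, read -2.27, -2.29 and -2.39 in knockout replicates 1 to 3, against -1.75, -2.06 and -1.61 in wild type replicates 1 to 3. Its log2 fold change was -0.51 ± 0.14 (SE, unadjusted p 0.0101, adjusted p 0.140 in limma). Peg13 passed under array weights (-0.56) and without wild type replicate 2 (-0.64, adjusted p 0.0382, where the alternatives spanned 0.0382 to 0.395). These fits called 5.95% and 9.6% of all tested probes. Nap1l5, an intronless gene of the nucleosome assembly protein family, read -4.85, -4.85 and -4.81 in knockout replicates 1 to 3, against -4.26, -4.50 and -4.54 in wild type replicates 1 to 3. The 3 knockout arrays of Nap1l5 spanned 0.04 and lay below every wild type array, with a log2 fold change of -0.41 ± 0.11 (SE, adjusted p 0.141 in limma). With normexp it was -0.18, where the offset of 50 was above its signals (31.2 to 44.6).

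Nnat, a small membrane proteolipid expressed from the paternal allele, read higher. It was at -0.97, -0.85 and -1.31 in knockout replicates 1 to 3, against -1.27, -2.25 and -2.04 in wild type replicates 1 to 3. Wild type replicate 1 lay just inside the knockout range and the other wild type arrays well below it. Nnat differed by 0.81 ± 0.28 (log2 fold change, SE, unadjusted p 0.0256, adjusted p 0.185 in limma), and its other probe gave 0.77 ± 0.24 without overlap (adjusted p 0.165). Plagl1, a zinc finger transcription factor, read 0.57, 0.17 and 0.43 in knockout replicates 1 to 3, against -0.06, 0.43 and -0.24 in wild type replicates 1 to 3. Its groups overlapped through wild type replicate 2, and its 4 probes gave 0.35, 0.31, 0.23 and -0.11 (log2 fold change).

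Igf2r and Grb10, which act in insulin-like growth factor signalling, overlapped between the groups, and so did Ddc and Gnas. Igf2r, the maternally expressed receptor that clears Igf2, ranged from 1.47 to 1.71 in the knockout and from 1.23 to 1.99 in wild type, with a log2 fold change of -0.03 ± 0.20 (SE). Grb10, an adaptor that restrains insulin and growth factor receptors, was at -0.28 ± 0.21, and its neighbour Ddc, an amino acid decarboxylase, at -0.35 ± 0.31 and 0.01 ± 0.22 by its probes. Gnas, which encodes a G protein alpha subunit, was at 0.10 ± 0.14 on its brightest probe, and probes placed elsewhere in this multi-transcript gene gave -0.20 ± 0.34 and 0.19 ± 0.28.

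The other imprinted genes overlapped between the groups on their brightest probes. Asb4, an adaptor of ubiquitin ligases, read -5.25, -5.04 and -5.16 in knockout replicates 1 to 3, against -5.04, -4.97 and -4.96 in wild type replicates 1 to 3. Knockout replicates 1 and 3 lay below the wild type arrays and replicate 2 just inside their range, with a log2 fold change of -0.16 ± 0.10 (SE, adjusted p 0.382 in limma). The second Asb4 probe gave -0.88 ± 0.34 and was well above background on 2 knockout and 3 wild type arrays. Peg10, a retrotransposon-derived gene, was at 0.26 ± 0.46 and 0.03 ± 0.28 by its probes, and Sgce, a sarcoglycan that shares its promoter region, at 0.00 ± 0.20. Copg2, a coatomer subunit whose 3′ end faces that of Mest on the opposite strand, gave 0.13 ± 0.16 and 0.26 ± 0.18. Impact, a regulator of translation, Zrsr1, a splicing factor relative, and Inpp5f, a phosphoinositide phosphatase, had log2 fold changes of 0.15 ± 0.20, 0.21 ± 0.27 and 0.18 ± 0.20.

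Imprinted genes varied more among wild type than among knockout arrays, and so did most probes. The SD over replicates was larger in wild type for 25 of the 33 genes (75.8%), against 72.8% of all tested probes. Its median was 0.23 in the knockout and 0.35 in wild type for imprinted genes, against 0.13 in the knockout and 0.22 in wild type for all probes. Among genes measured on every array, the widest wild type ranges were 2.35 for H19 and 2.14 for Igf2, where the knockout ranges were 0.60 and 0.50. Peg10 (1.75) and Usp29 (1.36) followed. The range of Kcnq1 rests on wild type arrays not well above background and is not a measure of its variation. The array that stood apart differed between genes: wild type replicate 1 was the lowest wild type array for 10 genes and the highest for 11, and replicate 2 the lowest for 14 (42.4%, against 34.7% of all tested probes) and the highest for 10. It differed among all 26649 tested probes too. There replicate 1 was the lowest for 7305 and the highest for 9007, and replicate 2 the highest for 10753.

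**Figure D5:**
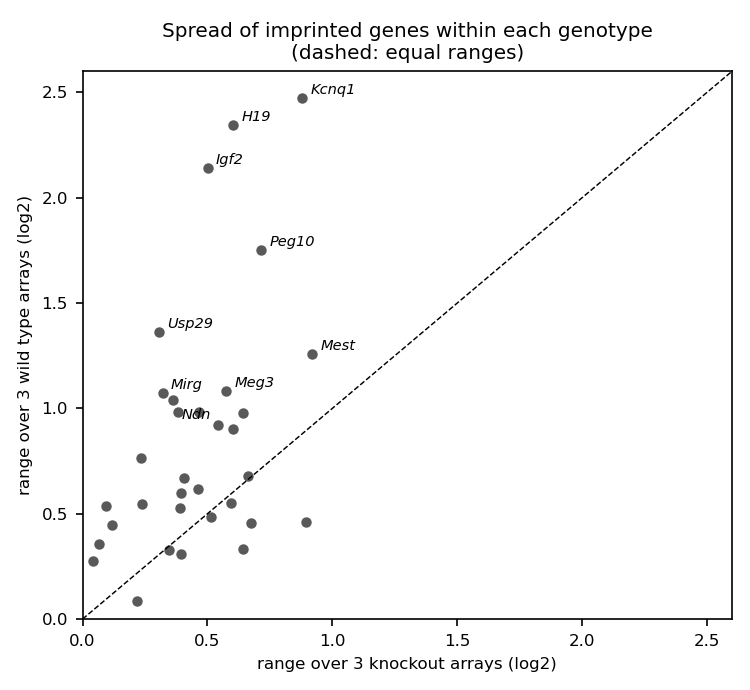
Range of log2 signal over 3 knockout arrays (horizontal axis) and over 3 wild type arrays (vertical axis) for the 33 tested imprinted genes, brightest probe each. H19 and Igf2 have wild type ranges of 2.35 and 2.14 while all knockout ranges are below 1, and the highest point, Kcnq1, was well above background on only 1 wild type array.

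A further 50 genes reported as imprinted in mouse gave 59 tested probes of 44 genes, and limma called 1 probe higher (against 0.124% of all tested probes) and 0 lower, with a median log2 fold change of 0.00 over genes. The called probe was 1 of 3 for Pon2, a paraoxonase gene near Peg10, at mm9 chr6:5222219-5222278. It read -4.15, -4.29 and -4.24 in knockout replicates 1 to 3, against -5.12, -5.12 and -4.96 in wild type replicates 1 to 3. The groups did not overlap, with a log2 fold change of 0.84 ± 0.10 (SE, adjusted p 0.0449 in limma), but the other probes of Pon2 gave -0.18 and -0.54, so its probes disagreed in direction. By the smallest p, Zim3 was followed by Nap1l4, a histone chaperone of the Kcnq1 cluster (0.31 ± 0.12, log2 fold change), Phactr2, a phosphatase regulator next to Plagl1 (0.47 ± 0.18), and Dhcr7, an enzyme of cholesterol synthesis (0.51 ± 0.19).

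Genes that set or keep imprints were tested as a list of 29, with 50 probes. Limma called 0 of these probes, 11 had an unadjusted p below 0.05 (1 higher, 10 lower), or 22% against 21.9% of all tested probes, and 24 of the 29 genes were negative by their brightest probe, with a median of -0.18. Of 26647 tested probes with an SD in both genotypes, 13704 were negative. The mean centred log2 signal of the list was -0.065, -0.085 and -0.147 in knockout replicates 1 to 3. It was 0.22, -0.07 and 0.147 in wild type replicates 1 to 3, so wild type replicate 2 lay at the knockout level. Hells, a chromatin remodeller needed for DNA methylation, was at -0.51 ± 0.14 (log2 fold change, SE). Dnmt3b, a DNA methyltransferase, read 4.29, 3.90 and 3.54 in knockout replicates 1 to 3, against 5.62, 4.44 and 6.001 in wild type replicates 1 to 3. Its wild type replicate 2 was the lowest wild type array, as for Mirg and Meg3, and its log2 fold change was -1.44 ± 0.42 (SE, adjusted p 0.152 in limma). Atrx, a chromatin remodeller, and Eed, a Polycomb subunit, were at -0.41 ± 0.12 and -0.46 ± 0.15. Without wild type replicate 2 limma called 7 probes of this list, beside 9.6% of all tested probes.

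Of 21 genes of the insulin-like growth factor system 19 were tested with 30 probes, and limma called 0 (8, or 26.7%, at an unadjusted p below 0.05, against 21.9% of all tested probes), with a median over genes of 0.11. Irs2, which relays signals from the insulin and growth factor receptors, read 0.88, 0.55 and 0.92 in knockout replicates 1 to 3, against 0.34, -0.59 and -0.50 in wild type replicates 1 to 3. Its knockout arrays all lay above its wild type arrays, at 1.04 ± 0.27 (log2 fold change, SE, adjusted p 0.128 in limma). Igf2bp1, which binds Igf2 mRNA, was at -0.37 ± 0.13 and Igfbp2, a binding protein for the growth factors, at 0.70 ± 0.27.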

How the data were processed

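Total RNA of 3 Zscan5b knockout and 3 wild type ES cell samples was read on 1-colour arrays, and groups came from the sample titles. The scanner tables give, as deposited, the linear intensity of each spot. They came from Feature Extraction, version 10.7.3.1 per the file headers, which removed a spatial background, detrended the signal, gave dim spots a surrogate value and placed probes on mm9 (version 10.3.1.1 per the submitters' processing notes). The authors' series table of log2 values served as an alternative. Its values, set against the scanner values of the same array, were already on a log2 scale and centred per probe, with column medians of -0.02, 0.02 and 0.03 for knockout and 0.02, -0.01 and -0.07 for wild type replicates 1 to 3. The sources used here do not give their scaling between arrays.

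Outlier spots and control spots were left out, log2 of the processed signal was averaged over a probe's spots, and the 75th percentile of the array was taken off. That percentile was a signal of 897 to 1028 on knockout and 852 to 932 on wild type arrays, and 25371 to 27111 and 26511 to 27754 probes were well above background. The number of arrays limits the precision. Knockout was set against wild type in limma 3.58.1 by lmFit and eBayes (R 4.3.3, with the data.table package, version 1.17.8), two-sided, with Benjamini-Hochberg adjustment over all 26649 tested probes and a threshold of 0.05. The procedure was tested on simulated data. No member probe was saturated. A gene's representative was its tested probe with the highest mean. This choice did not keep out a probe that passed the filter mainly through 1 group, such as that of Kcnq1. For a bound, the dim group's value on each array was raised to the dimmest signal that passed detection there, if it lay under it.

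Values per array are given for the 12 genes with the smallest unadjusted p, for Zscan5b and for all tested genes of the Igf2-H19, Peg3 and Dlk1-Meg3 clusters, and from each further list the called members and up to 4 with the smallest p (1 gene and 1 probe sequence are not reported here). Mest, Dnmt3b, Zim3 and Irs2 were given per array after their values were seen, and Apeg3 was named then too. The members and lists were chosen with earlier results of these data known. The samples were not treated as pairs by replicate number. Correlations of same-numbered deviations were 0.162, 0.232 and -0.144, against -0.317 to 0.21 for the other combinations. With 3 arrays per group these values cannot settle whether the samples are paired. Alternatives changed background correction, scaling, filter, variance prior, array weights, replicate block and the arrays included. Normexp background correction used an offset of 50, so its fold changes for dim probes are not comparable with those of the main fit.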

Additional observations from a re-analysis of the deposited data

How the results depend on the processing

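Limma called 124 of all tested probes. The count was 1585 with array weights, 231 when arrays were shifted to their median, and 0 with no detection filter, with normexp, with a trended robust prior, with detection required on all 6 arrays and with the replicate block. Leaving out 1 array gave 0 to 2557 (640 without wild type replicate 1, 2557 without wild type replicate 2, 0 without any other array). Of imprinted probes 0 were called, and 5 with array weights (both Mirg probes, Kcnq1ot1, Kcnq1 and Peg13), beside 5.95% of all tested probes. Leaving out 1 array gave 0 to 4. Without wild type replicate 2 these were both Mirg probes, Kcnq1 and Peg13, beside 9.6% of all tested probes. The Kcnq1 calls are no test of that gene, because only wild type replicate 2 read it well above background among wild type arrays. Without wild type replicate 1 they were 2, H19 and the dimmer Nnat probe, beside 2.4% of all tested probes. The other alternatives called 0. Their median was -0.17 to 0.087 with 1 array left out (-0.11 without knockout replicate 3, -0.17 without wild type replicate 1, 0.087 without wild type replicate 2), against -0.03. For imprint maintenance genes 4 probes were called with array weights and 0 to 7 with 1 array left out, and for insulin-like growth factor genes 0 to 1 (1 without wild type replicate 1 and 1 without replicate 2). The 1 call among other imprinted genes, Pon2, was 0 with no detection filter, normexp, the trended robust prior, all 6 arrays required or the replicate block, and 0 to 3 with 1 array left out. Of the 17 imprinted genes refitted one by one, only Peg3 (0.14 without wild type replicate 3) and Usp29 (-0.14 without wild type replicate 1, -0.0035 without replicate 3) changed sign; with 1 array left out Peg3 ran from -0.35 to 0.14 and Usp29 from -0.14 to 0.54. The cause was not tested.

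The main fit did not treat the samples as pairs, and with the replicate block limma called 0 imprinted probes, with the imprinted median at -0.03. Low signal limits Kcnq1, the dimmer Kcnq1ot1, H19 and Asb4 probes and a dim Gnas probe, which were not well above background on every array, and Kcnq1 was not tested with all 6 arrays required.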
